A study of Rattus norvegicus with 6 samples.

Results

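The genes described here belong to the Hippo pathway and its effector, the transcriptional co-activator YAP. They were taken from the gene table by symbol and number 10 of the 32883 genes in it. Of these, 5 are targets of YAP, namely Ctgf, Cyr61, Ankrd1, Amotl2 and Ajuba, and 5 are regulators, namely Yap1, Wwtr1, Tead1, Lats1 and Lats2. The 10 genes were proposed with their levels in this same comparison known, so their fold changes are given as a description and no test is drawn from them. All 10 were found in the table, and 8 had enough counts to enter the fit across genes. Ankrd1 and Yap1 did not.

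RNA-seq was performed on the vestibular epithelium of 6 adult male Long-Evans rats, 8 to 9 weeks old when received. The IDPN-4wk group was 3 rats exposed for 4 weeks, through the drinking water, to 20 mM 3,3'-iminodipropionitrile (IDPN), a nitrile that damages inner ear hair cells (HCs). The Control group was 3 rats given plain water. Each library came from a single animal, whose 2 utricles and 6 cristae were pooled, and held whole tissue with no sorting of cells. In such bulk samples, fewer cells of a type and less RNA per cell cannot be told apart. The labels give the same batch to all 6 samples. The animal codes in the sample titles share a stem within IDPN-4wk that no Control carries, and whatever this stem stands for cannot be told apart from the treatment.

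The Hippo pathway is a kinase cascade that limits tissue growth and responds to cell contact, polarity and tension. Its upstream kinases (MST1 and MST2, encoded by Stk4 and Stk3) activate the LATS kinases, which phosphorylate YAP (Yap1) and its paralog TAZ (Wwtr1) and keep them out of the nucleus. When the LATS kinases are inactive, YAP and TAZ enter the nucleus, bind the TEAD transcription factors and raise the transcription of their targets. In the inner ear the pathway is best known for holding back the growth of supporting cells as the sensory epithelium matures. The control of YAP acts largely on the protein, so transcript levels of the regulators do not report its activity.

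The promoters of 4 of the 5 targets were present in the RefSeq table and are shown because TEAD factors bind a short core that can be looked for in them. The core searched was GGAATG, on both strands, where its reverse complement reads CATTCC. The table covers 250 bases before and 50 bases after 1 annotated start of each gene in build GRCr8. The 250 bases before the start are printed 5′ to 3′ on the strand of the gene, with matches in capitals. They lie at chr1:22624615-22624864 (minus strand) for Ctgf, at chr2:237225690-237225939 (minus strand) for Cyr61, at chr8:112182376-112182625 (plus strand) for Amotl2 and at chr15:32000043-32000292 (minus strand) for Ajuba.
Ctgf: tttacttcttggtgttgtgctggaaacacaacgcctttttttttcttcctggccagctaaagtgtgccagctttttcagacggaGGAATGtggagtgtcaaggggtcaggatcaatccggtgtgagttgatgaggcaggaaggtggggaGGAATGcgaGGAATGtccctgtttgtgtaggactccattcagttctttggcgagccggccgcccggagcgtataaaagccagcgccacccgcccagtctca
Cyr61: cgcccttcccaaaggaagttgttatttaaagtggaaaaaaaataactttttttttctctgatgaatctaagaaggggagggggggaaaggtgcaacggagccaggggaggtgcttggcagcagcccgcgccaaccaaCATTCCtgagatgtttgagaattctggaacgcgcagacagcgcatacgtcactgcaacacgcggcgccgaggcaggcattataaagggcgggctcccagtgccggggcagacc
Amotl2: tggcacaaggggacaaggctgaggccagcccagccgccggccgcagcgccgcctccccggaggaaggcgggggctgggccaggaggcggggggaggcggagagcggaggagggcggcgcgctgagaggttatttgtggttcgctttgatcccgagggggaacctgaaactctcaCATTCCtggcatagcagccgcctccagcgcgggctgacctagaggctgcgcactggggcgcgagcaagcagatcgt
Ajuba: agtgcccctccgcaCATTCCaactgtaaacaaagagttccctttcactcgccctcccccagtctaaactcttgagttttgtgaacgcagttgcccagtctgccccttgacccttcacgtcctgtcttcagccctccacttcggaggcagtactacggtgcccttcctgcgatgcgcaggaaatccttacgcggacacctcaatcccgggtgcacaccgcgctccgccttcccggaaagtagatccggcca

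The Ctgf promoter held 3 matches, which began at positions -166, -101 and -92 relative to the start, all on the strand of the gene. Cyr61, Amotl2 and Ajuba held 1 match each, on the opposite strand, beginning at positions -113, -76 and -236. Among the 27457 promoters of 300 bases in the table, 3811 (13.9%) held at least 1 match and 29 (0.106%) held 3 or more. Among the regulators, the promoters of Yap1, Wwtr1 and Lats1 were in the table, and only that of Yap1 held a match (1 match, beginning at position -116). Ankrd1, Tead1 and Lats2 had no entry. A match is a string of letters and was not shown here to be bound.

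**Figure D1:**
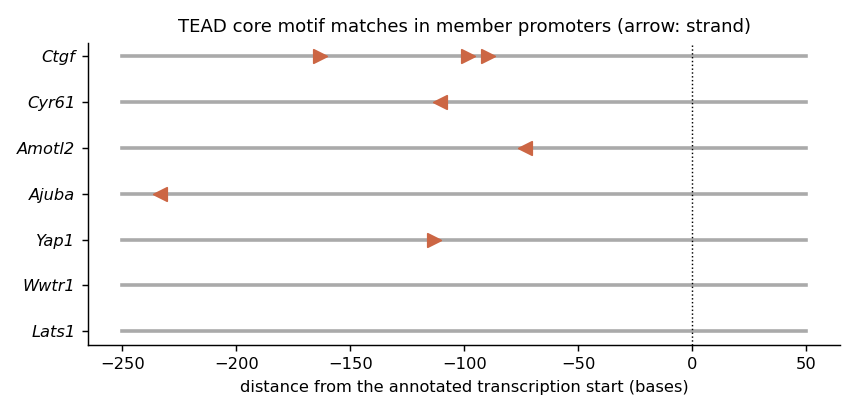
Matches to the TEAD core GGAATG on either strand in the promoters of 7 of the 10 genes, by distance in bases from the annotated transcription start (dotted line), with the arrow giving the strand. Ctgf has 3 matches, Cyr61, Amotl2, Ajuba and Yap1 have 1 each, and Wwtr1 and Lats1 have 0.

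Among the targets, Ctgf stood far above the others in its difference between the groups, Amotl2 and Ajuba were moderately higher in IDPN-4wk, Cyr61 was nearly level and Ankrd1 was barely detected. Values are CPM, the counts scaled to a common library size after TMM scaling, and a gene was called when its Benjamini-Hochberg adjusted p (Padj) from the edgeR quasi-likelihood test was under 0.05 over all genes tested and its fold change was over 1.5 in either direction. Over the 14352 genes tested, 9.71% were called, 3.09% as higher in IDPN-4wk and 6.62% as lower. Of the 8 genes described here that were tested, 1 was called, Ctgf. With Padj alone and no limit on the fold change, Ctgf, Amotl2 and Ajuba were called, 3 of 8 and all higher, where 19.4% of all genes were called and 7.89% were called higher. Since the genes were chosen on this comparison, nothing is read from these shares.

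Ctgf (ENSRNOG00000015036), which encodes the secreted matricellular protein CCN2, is the best known target of YAP and is also induced by TGF-beta. It had 274, 182 and 178 CPM in the Control libraries and 696, 854 and 768 CPM in the IDPN-4wk libraries. The groups were far apart, and the lowest IDPN-4wk library held more than 2 times the CPM of Control replicate 1, the highest of its group. The means were 211 ± 54.6 and 773 ± 79.0 CPM (SD, n = 3 each), a fold change of 3.65 (log2-Fold change 1.87, SE 0.15). Leaving out each library in turn gave log2-Fold changes from 1.76 to 2.10. Ctgf ranked 69 of the 444 genes called higher by the size of its fold change.

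Cyr61 (ENSRNOG00000014350) encodes CCN1, a close relative of CCN2 and the other classical YAP target. It had 66.7, 84.4 and 81.3 CPM in the Controls and 84.1, 84.9 and 86.7 CPM in IDPN-4wk libraries. The groups overlapped, and Control replicate 1 was the low one. The log2-Fold change was 0.14 (SE 0.09), which was 0.04 at its lowest and 0.20 at its highest when a library was left out. The number of Ctgf counts for each Cyr61 count was 4.11, 2.16 and 2.18 in Control and 8.28, 10.1 and 8.85 in IDPN-4wk libraries. This ratio does not depend on the scaling between libraries, and Control replicate 1 stood apart from the other Controls in it.

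Amotl2 (ENSRNOG00000008487), an angiomotin that binds YAP at cell junctions and is also its target, had 122, 140 and 144 CPM in the Controls and 204, 198 and 170 CPM in IDPN-4wk libraries. The groups did not overlap, and IDPN-4wk replicate 3 was nearest to Control. Its log2-Fold change was 0.50 (SE 0.09), under the limit set by the fold change. Ajuba (ENSRNOG00000012791), a LIM domain protein that restrains the LATS kinases, had 90.9, 88.4 and 83.7 CPM in the Controls and 134, 130 and 103 CPM in IDPN-4wk libraries. Its log2-Fold change was 0.48 (SE 0.10), again without overlap and again with IDPN-4wk replicate 3 nearest to Control. When TMM was replaced by library size alone, the log2-Fold changes were 0.61 for Amotl2 and 0.59 for Ajuba and both passed the fold change limit, while the median of all genes moved from 0.02 to 0.13.

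Ankrd1 (ENSRNOG00000018598) encodes an ankyrin repeat protein of the sarcomere and nucleus that is much used as a YAP reporter in cultured cells. Its counts were 11, 3 and 1 in Control and 6, 10 and 6 in IDPN-4wk libraries, at most 0.710 CPM. The sums were 15 and 22 counts, and their ratio per effective library size was 1.32, with an exact 95% counting interval from 0.654 to 2.73. The depth did not allow a difference to be seen. The interval covers counting error only.

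**Figure D2:**
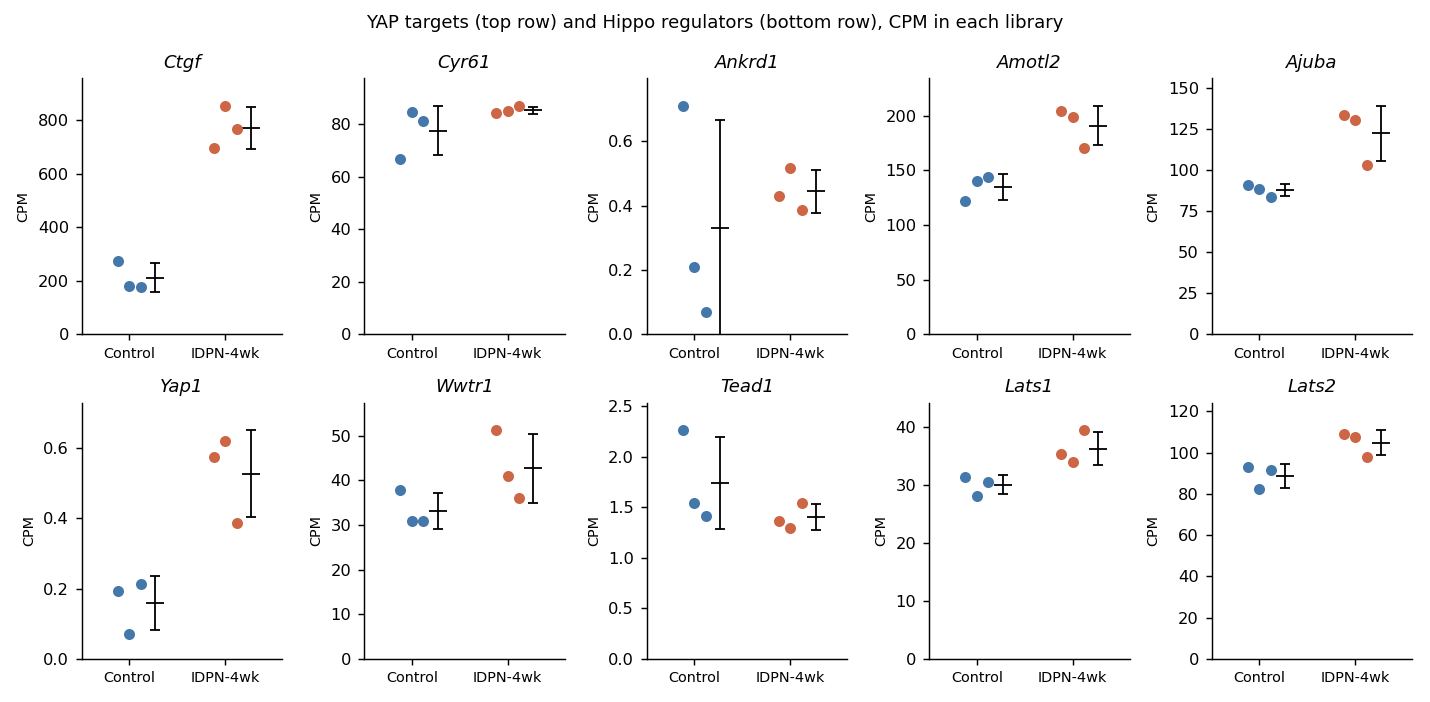
CPM of the 5 YAP targets (top row) and the 5 Hippo regulators (bottom row) in each library (points), with the mean and SD of each group of 3 (black, cut at 0 where the bar would pass below it). Ctgf runs from 178 to 274 CPM in the Controls and from 696 to 854 CPM in IDPN-4wk, and Yap1 and Ankrd1 stay under 1 CPM throughout.

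The 4 regulators tested had log2-Fold changes from -0.32 to 0.36, beside 1.87 for Ctgf. Lats1 and Lats2 did not overlap between the groups and were higher in IDPN-4wk, with fold changes of 1.21 and 1.18, Wwtr1 was higher on average with overlap, and Tead1 and Yap1 were at very low counts, Yap1 without overlap. None of the 4 regulators tested was called. Of all 8 genes tested, 5 (Ctgf, Amotl2, Ajuba, Lats1 and Lats2) did not overlap between the groups and were higher in IDPN-4wk, and 0 were lower without overlap. Among all genes tested, 18.5% did not overlap and were higher and 19.3% did not overlap and were lower.

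Yap1 (ENSRNOG00000005933) was listed at 3, 1 and 3 counts in Control and at 8, 12 and 6 counts in IDPN-4wk libraries. Every library held at least 1 count, so the gene was listed in both groups, with the Control libraries at or under 3 counts and the IDPN-4wk libraries at 6 or more. The ratio of the summed counts, 7 and 26, was 3.34 per effective library size, a description of very few amplified reads. A row at so few counts need not hold all reads of its gene. Myh9, which encodes a non-muscle myosin found in most cells and was singled out after its values were seen, was listed at 179, 251 and 1 counts in Control and at 0 in all 3 IDPN-4wk libraries. Whether the rows of Yap1 and Myh9 hold all the reads of these genes was not tested.

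Wwtr1 (ENSRNOG00000016617), the gene of TAZ, had 37.8, 30.8 and 30.9 CPM in the Controls and 51.3, 40.9 and 36.1 CPM in IDPN-4wk libraries. IDPN-4wk replicate 3 was below Control replicate 1, and the log2-Fold change of 0.36 (SE 0.14) went from 0.21 to 0.47 as libraries were left out. Tead1 (ENSRNOG00000015488), a TEAD factor, was listed at 35, 22 and 20 counts in Control and 19, 25 and 24 counts in IDPN-4wk libraries, or 1.74 ± 0.456 and 1.40 ± 0.131 CPM (SD, n = 3 each). It overlapped between the groups, and its log2-Fold change was -0.32 (SE 0.35).

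Lats1 (ENSRNOG00000014916) had 31.4, 28.2 and 30.5 CPM in the Controls and 35.4, 34.0 and 39.5 CPM in IDPN-4wk libraries, with a log2-Fold change of 0.27 (SE 0.10). Lats2 (ENSRNOG00000056343), a kinase that is itself a YAP target, had 92.9, 82.2 and 91.4 CPM in the Controls and 109, 107 and 97.8 CPM in IDPN-4wk libraries, with a log2-Fold change of 0.24 (SE 0.08). Neither was called, and both were highest in an IDPN-4wk library. With a library left out, the log2-Fold change stayed from 0.19 to 0.32 for Lats1 and from 0.18 to 0.27 for Lats2.

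The rest of the pathway was measured in a list of 50 genes outside the 10, of which 46 were tested. They cover the kinase core, upstream scaffolds, the STRIPAK phosphatase complex with the proteins that degrade YAP, and the TEAD factors with their partners. Their median log2-Fold change was 0.03, beside 0.02 for all genes tested. Only 1 of the 46 was called, or 2.17%, where 9.71% of all genes were. It was Crb2, higher in IDPN-4wk, and 0 were called lower, with 15 of the 46 at an unadjusted p under 0.05 (33.1% of all genes) and 1 higher and 0 lower called by DESeq2.

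Crb2 (ENSRNOG00000025498), a Crumbs protein of apical cell polarity, had 2.13, 2.87 and 1.42 CPM in the Controls and 6.11, 5.0 and 3.73 CPM in IDPN-4wk libraries (log2-Fold change 1.21, SE 0.32, edgeR Padj 0.0238). The groups did not overlap, but the gene was low and its call was lost when a library was dropped in 4 of 6 cases. The edgeR Padj was 0.0602 without Control replicate 1, 0.0803 without Control replicate 3, 0.0940 without IDPN-4wk replicate 1 and, lacking IDPN-4wk replicate 2, 0.0651.

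In the kinase core, 0 of 16 genes were called, with a median log2-Fold change of 0.00. DESeq2 also called 0, and 4 had an unadjusted p under 0.05, where over all genes 9.71% were called and 33.1% had such a p. In groups as small as this and those that follow, 0 calls say little. Stk3, the gene of MST2, had 44.6, 44.8 and 46.3 CPM in the Controls and 29.3, 26.3 and 36.1 CPM in IDPN-4wk libraries. All IDPN-4wk libraries were lower, and the log2-Fold change of -0.57 (SE 0.12, edgeR Padj 0.00717) was just short of the fold change limit, which it passed without IDPN-4wk replicate 3 (-0.72, edgeR Padj 9.97e-04). Its paralog Stk4 (MST1) had 59.7 ± 5.38 and 59.1 ± 3.17 CPM (SD, n = 3 each), with a log2-Fold change of -0.01 and a 95% interval from -0.21 to 0.18. The difference between Stk3 and Stk4 was not tested. For the scaffold of these kinases, Sav1, the log2-Fold change was -0.23 (95% interval -0.55 to 0.10, edgeR Padj 0.317). The co-activators of the LATS kinases were at 0.24 for Mob1a (95% interval 0.03 to 0.45, edgeR Padj 0.110) and at -0.17 for Mob1b (-0.49 to 0.15, edgeR Padj 0.454). For Taok3, a kinase upstream of MST singled out after its values were seen, the log2-Fold change was -0.36 (edgeR Padj 0.0399), under the fold change limit.

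Among the upstream scaffolds, 1 of 14 tested genes was called (7.14%, beside 9.71% of all genes), Crb2 above, and the median was 0.05. DESeq2 also called 1, and 5 of the 14 had an unadjusted p under 0.05, beside 33.1% of all genes. Nf2, which encodes the tumour suppressor merlin, had 69.9 ± 2.14 CPM in the Controls and 73.9 ± 2.74 CPM after IDPN-4wk (SD, n = 3 each), with a 95% interval of the log2-Fold change from -0.08 to 0.24. The relatives of Amotl2 were at 0.16 for Amot (95% interval -0.11 to 0.43, edgeR Padj 0.390) and at -0.21 for Amotl1 (-0.81 to 0.38, edgeR Padj 0.630). Limd1, a relative of Ajuba, was at 0.11 (95% interval -0.07 to 0.30, edgeR Padj 0.388), and Wtip was not found under that symbol. Frmd6, a FERM domain protein that activates the pathway, was singled out after its values were seen, with a log2-Fold change of 0.25 (edgeR Padj 0.0351).

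In the STRIPAK and turnover group, 0 of 10 genes were called, by DESeq2 as well, with 4 at an unadjusted p under 0.05 and a median of 0.05, beside the same 9.71% and 33.1% over all genes. Of the TEAD factors and their partners, 0 of 6 tested were called, by DESeq2 as well, with 2 at an unadjusted p under 0.05, again beside 9.71% and 33.1%. The log2-Fold change was 0.08 for Tead2 (95% interval -0.23 to 0.39), 0.21 for Tead3 (0.04 to 0.39, edgeR Padj 0.0893) and 0.03 for Tead4 (-0.22 to 0.29). Vgll4, which competes with YAP for TEAD, had 96.0 ± 3.36 and 98.1 ± 7.23 CPM (SD, n = 3 each) and a 95% interval from -0.14 to 0.20. These intervals lie within the fold change limit of 1.5 in either direction for Tead2, Tead3, Tead4 and Vgll4.

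**Figure D3:**
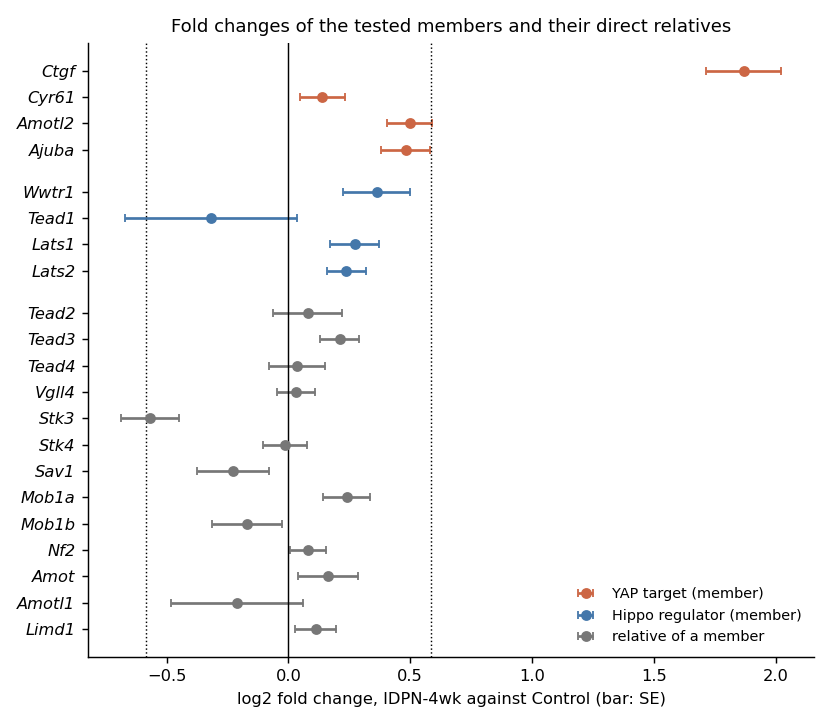
Log2-Fold change (IDPN-4wk against Control) with its SE for the 8 tested genes of the set and 13 direct relatives, with dotted lines at a fold change of 1.5 in either direction. Ctgf at 1.87 lies alone on the right, Amotl2 and Ajuba lie at 0.50 and 0.48, and Stk3 lies at -0.57.

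Further YAP and TAZ targets were taken from a signature list of genes known as their targets in other cells, leaving out the genes above. Of 17 genes, 16 were tested, with a median log2-Fold change of -0.07. None was called higher and 2 (12.5%) were called lower, where 3.09% and 6.62% of all genes were. An unadjusted p under 0.05 was found for 7 of the 16 and for 33.1% of all genes. DESeq2 gave 0 higher and 2 lower. The 2 lower genes were Igfbp3 and Rbms3.

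Igfbp3 (ENSRNOG00000061910), a secreted carrier of insulin-like growth factors, had 188, 205 and 182 CPM in the Controls and 81.5, 83.7 and 141 CPM in IDPN-4wk libraries. It fell in all 3, least in IDPN-4wk replicate 3 (log2-Fold change -0.91, SE 0.18, edgeR Padj 0.00482). Rbms3 (ENSRNOG00000025881), an RNA-binding protein, had 37.1, 35.9 and 42.5 CPM in the Controls and 17.3, 21.6 and 20.6 CPM in IDPN-4wk libraries (log2-Fold change -0.96, SE 0.12, edgeR Padj 3.90e-04). Both were still called with any single library left out, with log2-Fold changes from -1.23 to -0.78 for Igfbp3 and from -1.02 to -0.88 for Rbms3.

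Another 3 signature genes had a Padj under 0.05 with a fold change under 1.5, and are named here with their values already seen. F3, the gene of tissue factor, had 80.9, 78.2 and 69.2 CPM in the Controls and 101, 130 and 105 CPM in IDPN-4wk libraries (log2-Fold change 0.56, SE 0.11, edgeR Padj 0.00448). It passed the fold change limit with upper quartile scaling (0.59) and with library size alone (0.67), as well as without Control replicate 1 (0.60), IDPN-4wk replicate 1 (0.62) or IDPN-4wk replicate 3 (0.59). Tgfb2, a TGF-beta ligand, had 297 ± 29.8 and 209 ± 8.35 CPM (SD, n = 3 each; log2-Fold change -0.50, edgeR Padj 0.00221), and the log2-Fold change of Asap1 was -0.28 (edgeR Padj 0.0484). The tested signature genes ran from -0.96 to 0.56.

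The promoter matches gave a further grouping that did not use the counts. Of the tested genes, 10766 could be matched to a promoter by symbol, and 9 of these promoters held 3 or more matches. Ctgf was called higher, and the other 8 (Podnl1, Cnot6, Tbxa2r, Inf2, Sqor, C1r, Il1r1 and Mapk10) were not called, with log2-Fold changes from -0.39 to 0.97. Calls of higher were made for 269 of 9560 genes with 0 matches (2.81%), 45 of 1129 with 1 match (3.99%) and 1 of 68 with 2 matches (1.47%). Calls of lower were made for 6.18%, 7.44% and 10.3% of the same groups and for 0 of the 9 genes with 3 or more. These shares were not tested against each other. In the signature, 2 of 12 matched promoters (16.7%) held a match, and in the pathway list 6 of 42 (14.3%), beside 13.9% of all promoters.

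Relatives of the targets were called in both directions. Of 9 genes in the CCN, zyxin and muscle ankyrin repeat families, 7 were tested, 1 was called higher and 2 were called lower, where 3.09% and 6.62% of all genes were. With 7 genes, nothing is read from these shares. Among the CCN genes, Wisp2 (CCN5) had 1.55, 1.40 and 0.566 CPM in the Controls and 7.91, 7.58 and 4.31 CPM in IDPN-4wk libraries (log2-Fold change 2.48, SE 0.38, edgeR Padj 0.00130), without overlap but at a low level. Nov (CCN3), which often opposes CCN2, had 147, 211 and 211 CPM in the Controls and 83.4, 105 and 107 CPM in IDPN-4wk libraries (log2-Fold change -0.94, SE 0.14, edgeR Padj 0.00105). Wisp1 and Wisp3, the remaining CCN genes, were at -0.51 (edgeR Padj 0.0717) and 0.42 (edgeR Padj 0.332). Of the CCN family, Ctgf and Wisp2 were thus higher, Nov was lower, and Cyr61, Wisp1 and Wisp3 were not called.

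**Figure D4:**
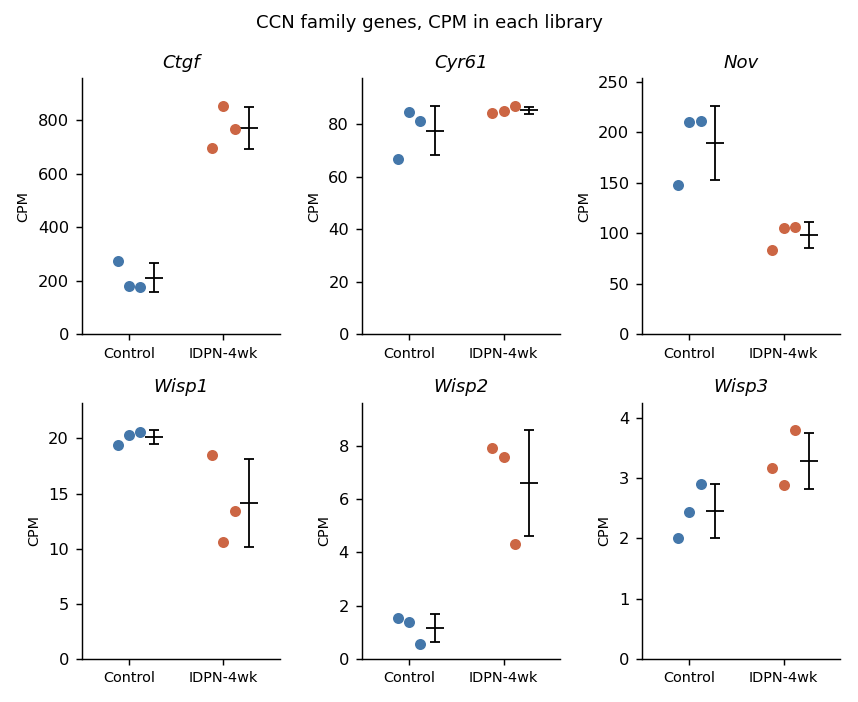
CPM of the 6 CCN family genes in each library (points), with the mean and SD of each group of 3 (black). Ctgf and Wisp2 are higher in all 3 IDPN-4wk libraries than in any Control library, Nov is lower in all 3, and Cyr61 overlaps.

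Lpp, a zyxin relative of Ajuba found at focal adhesions, had 19.1, 17.1 and 20.1 CPM in the Controls and 10.8, 9.85 and 14.2 CPM in IDPN-4wk libraries (log2-Fold change -0.69, SE 0.16, edgeR Padj 0.0126). Its call was lost without Control replicate 3 (edgeR Padj 0.0564), IDPN-4wk replicate 1 (0.0550) or IDPN-4wk replicate 2 (0.0514). Zyx and Trip6, of the same family, were not called, at -0.15 (edgeR Padj 0.231) and 0.23 (edgeR Padj 0.0713).

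Ctgf and Cyr61 are also targets of other signals, which were measured by short gene lists. Over all genes tested, 3.09% were called higher, 6.62% were called lower, 33.1% had an unadjusted p under 0.05 and the median log2-Fold change was 0.02. Of 12 targets of serum response factor and MRTF, 9 were tested and 0 were called, by DESeq2 as well, with 4 at an unadjusted p under 0.05 and a median log2-Fold change of -0.06. Of 8 genes of the TGF-beta response, 4 had a log2-Fold change above 0 and 4 below, from -2.12 to 0.98. With Padj alone, 1 was higher and 2 lower, where 19.4% of all genes passed in either direction. With the fold change limit as well, 0 were called higher and 2 lower, with a median of -0.18. An unadjusted p under 0.05 was found for 5, and DESeq2 called 0 higher and 3 lower. Of so few genes, no direction is read for the list. The 2 called lower in edgeR were Ltbp2, a matrix protein, which had 45.6 ± 2.73 CPM against 10.5 ± 2.92 CPM (SD, n = 3 each; log2-Fold change -2.12, edgeR Padj 3.66e-05), and Thbs1 (log2-Fold change -0.72, edgeR Padj 0.00938), named after its values were seen, which was at -0.56, inside the fold change limit, without IDPN-4wk replicate 3. Thbs1 is also a target of YAP in other cells.

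Of 14 immediate early genes, which growth factors and injury induce within minutes, 11 were tested and 2 were called higher (3 by DESeq2), where 3.09% of all genes were. None was called lower, and the median was 0.31 beside 0.02 for all genes. With Padj alone, 3 were higher and 1 lower, where 19.4% of all genes passed in either direction. An unadjusted p under 0.05 was found for 6 of the 11 and for 33.1% of all genes. With 11 genes, nothing is read from these shares. Fosl1, of the AP-1 factors that bind beside TEAD at many enhancers, had 0.258, 0.0699 and 0.637 CPM in the Controls and 2.80, 2.94 and 0.708 CPM in IDPN-4wk libraries (log2-Fold change 2.72, SE 0.70, edgeR Padj 0.0202). IDPN-4wk replicate 3 was close to Control, and the call was lost without Control replicate 1 (edgeR Padj 0.0665), Control replicate 2 (0.0733), IDPN-4wk replicate 1 (0.0758) or IDPN-4wk replicate 2 (0.0781). Junb, named after its values were seen, was at 14.2 ± 1.23 and 25.5 ± 6.39 CPM (SD, n = 3 each; log2-Fold change 0.85, edgeR Padj 0.00842), again lowest of its group in IDPN-4wk replicate 3.

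**Figure D5:**
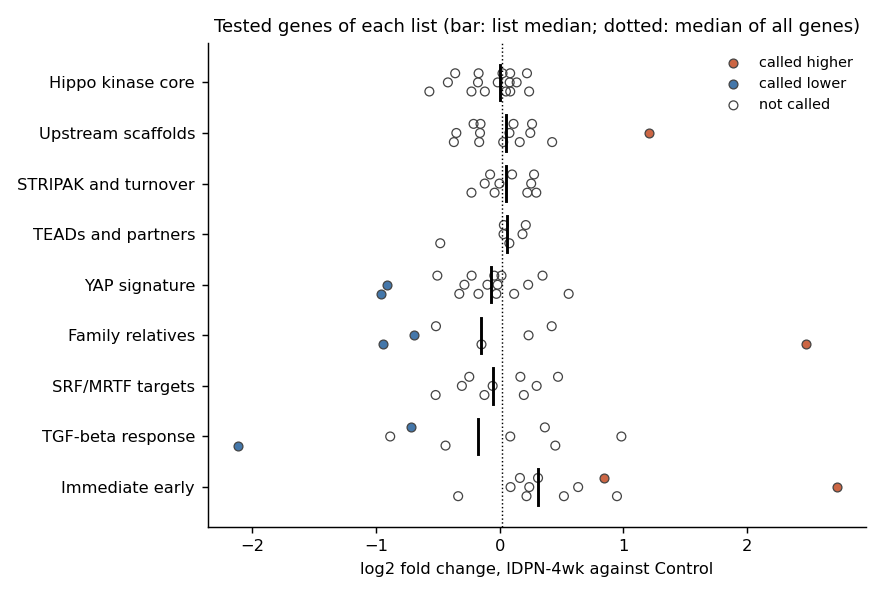
Log2-Fold change of every tested gene of the pathway, signature, family and response lists, with the list median (bar) and the median of all genes (dotted line at 0.02). The 4 Hippo groups cluster around 0 with a single called gene, Crb2, and the signature has 2 called genes, both lower.

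Among tested genes, leaving out those with provisional names, the 5 most like Ctgf in their levels over the 6 libraries were Hspa1a, Trim15, Plau, Chaf1b and Apold1. Of these, Trim15, Plau and Chaf1b were low, at most 3.35, 5.98 and 2.32 CPM in any library. Likeness was the root-mean-square difference between log2 CPM values, each gene centred on its own mean, and ran from 0.13 for Hspa1a to 0.21 for Apold1. Hspa1a, an inducible heat shock protein, had 49.8, 37.6 and 34.0 CPM in the Controls and 160, 150 and 159 CPM in IDPN-4wk libraries. IDPN-4wk replicate 2 was the lowest of its group for Hspa1a and the highest for Ctgf. These genes were picked for likeness over the same libraries, so the likeness itself is a description. Plau encodes urokinase, a protease of the cell surface. The profile of Yap1 was not compared, since it did not enter the fit.

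Depth ran from 13358678 to 18561991 counts per library. For the marker lists that follow, the shares called over all genes were 3.09% higher and 6.62% lower. HC markers were present in all libraries and lower in IDPN-4wk, with a summed level of 10 genes from 1873 to 2016 CPM in the Controls and from 958 to 1273 CPM in IDPN-4wk libraries and 4 of 10 called lower. For supporting cells, the sum of 10 genes was from 10660 to 11768 CPM in the Controls and from 5919 to 7272 CPM in IDPN-4wk, and 4 of 10 were called lower. Stroma markers ran from 873 to 1051 CPM in the Controls and from 838 to 936 CPM in IDPN-4wk libraries (1 of 8 higher, 1 lower), endothelium markers from 349.9 to 474 and from 307 to 333 CPM (1 of 5 lower), and pericyte and smooth muscle markers from 220.1 to 255 and from 234 to 258 CPM (1 of 6 higher, 1 lower). Schwann cell markers ran from 9027 to 11311 and from 6221 to 9172 CPM (1 of 8 lower), neuron markers from 94.4 to 104 and from 62.0 to 67.3 CPM (1 of 6 higher, 2 lower), macrophage markers from 113 to 154 and from 94.0 to 191 CPM (1 of 10 higher), and dark cell and melanocyte markers from 1024 to 1316 and from 706 to 775 CPM (2 of 6 lower). With Padj alone, 5 of 8 Schwann cell markers were lower, where 19.4% of all genes passed in either direction. Median log2-Fold changes of the tested markers were -0.53 for HCs, -0.43 for supporting cells, -0.49 for Schwann cells and -0.48 for neurons. They were -0.77 for dark cells and melanocytes, -0.28 for endothelium, -0.03 for stroma, 0.06 for pericytes and smooth muscle and 0.03 for macrophages. Of 9 skeletal muscle genes in the table, which bear on Ankrd1, the sum ran from 7.01 to 11.2 CPM in Control and from 41.6 to 72.8 CPM in IDPN-4wk libraries. Only Myh4 was tested and it was called higher (log2-Fold change 2.87). The rest were too low to test, so the sum does not describe the 9 as a set. Of the 9, 4 had at most 3 counts in any library, among them Ckm, Tnni2 and Csrp3 with 0 counts in all 6 libraries. The part of these cell types in the differences above was not tested.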

How the data were processed

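RNA-seq libraries were made by the authors from 6 to 11 ng of total RNA with oligo-dT priming and template switching (SMART-seq2), with 8 and then 12 cycles of PCR. According to the submitters' processing notes, paired-end reads were mapped to Rnor6.0 with STAR 2.5.3a and expected counts per gene were estimated with RSEM 1.3.0, the unit deposited by the authors. The counts were whole as deposited. RSEM divides reads among similar genes and the protocol keeps no strand, so close paralogs and overlapping genes are less certain. Reads had no molecular identifiers.

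Groups came from the treatment label, with replicates numbered in accession order. Genes passing filterByExpr (minimum count 10, minimum total 15) numbered 14352. Scaling was by TMM, and groups were tested in edgeR 4.0.16 (quasi-likelihood, R 4.3.3). DESeq2 1.42.0, other scalings, filters and thresholds and leaving out each library were the alternatives. The SE was the log2-Fold change over the root of the quasi F statistic. Each p sets the difference between the groups against the variation between 3 animals a group, with that variation estimated partly from all genes. Scripts were tested on simulated data. The 10 genes and all lists were chosen with earlier results of these data known. Genes named were the 10, called genes of the pathway, signature and family lists and 14 direct relatives. Also named were the most changed called gene in each direction of the other lists, and the 5 nearest to Ctgf without provisional names. Every other gene named was chosen after its values were seen, including the uncalled family genes, the skeletal muscle genes and the genes with 3 or more promoter matches. Promoters of build GRCr8 were matched by symbol or older symbol, since no genome of the authors' build was used here.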

Additional observations from a re-analysis of the deposited data

How the results depend on the processing

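No paired analysis was possible because the labels give no replicate numbers. The 8 tested genes of the set kept their direction under the alternatives run, which is no support for them since they were chosen on this comparison. Over all genes, glmTreat (a test against a fold change of 1.5) called 453 genes and Padj alone 2778, in place of 1394. Library size alone gave 762 higher and 780 lower genes in place of 444 and 950. In the pathway list, glmTreat called 0 and Padj alone 5 genes, and leaving out a library gave from 0 to 2. In the signature, glmTreat called 1 and Padj alone 5. Leaving out a library gave from 1085 to 1581 calls over all genes and from 2 to 3 in the signature. Under glmTreat the edgeR Padj was 0.251 for Crb2, 0.241 for Igfbp3, 0.0795 for Nov, 1.00 for Lpp, 0.0961 for Fosl1, 0.841 for Thbs1 and 0.413 for Junb. The sign turned for genes near 0. Stk4 was at 0.0178 with upper quartile scaling and 0.0937 with library size alone, and from -0.0628 to 0.0615 as each library was left out (above 0 when it was Control replicate 1 or IDPN-4wk replicate 1). The same ranges were -0.00559 to 0.158 for Tead2 and -0.0330 to 0.0587 for Vgll4, both below 0 lacking IDPN-4wk replicate 2, and -0.0033 to 0.0940 for Tead4, below 0 lacking Control replicate 2 (-0.0023) or IDPN-4wk replicate 3. The cause was not tested. The few counts of Yap1, Ankrd1 and Tead1 limit what can be said of them.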
